A study of Mus musculus with 2 samples.

Results

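The mitochondrial carriers of the Slc25 family were followed in mouse liver between fasting and feeding. The members were taken by name and not by the value of each, though they were chosen with earlier results of these data known. Every probe was used whose transcript identifier maps to a gene symbol of the form Slc25a followed by a number, without Slc25a1 and Slc25a20. This gave 45 genes out of 20652 genes named on the array, measured by 53 of 39402 probes, and 8 of the 45 genes had 2 probes. Total RNA came from the livers of male mice, C57BL/6 J in the study's methods, which give an age of about 8 to 12 weeks for its mice. No transgene, deletion or drug is named for either group. One group was fasted, for 16 h in one label and overnight for about 14 to 16 h in another. The second group is labelled feeding, and the labels describe it both as having food freely available and as given nutrition after the fast. RNA of 3 mice was pooled within each group and read on 1 Agilent array, so the difference between feeding and fasting has no replicate check, and neither a p-value nor an SD over mice is given.

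Carriers of this family sit mostly in the inner mitochondrial membrane and exchange one small molecule for another between the cytosol and the matrix. They are built from repeats of a pair of membrane helices, and most use an alternating mechanism in which the binding site faces one side at a time. In the liver they are known for moving ADP and ATP, phosphate, the intermediates of the urea cycle, the reducing equivalents of the malate-aspartate shuttle and the cofactors of matrix enzymes. Their genes lie in the nucleus, and the proteins reach the inner membrane through the TIM22 complex and its small chaperones.

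The values are processed signals, intensities from which the scanner software had subtracted the background, quantile normalized between the 2 arrays. A difference is feeding minus fasting on the log2 scale, and a carrier is called past 2-fold at a difference of 1 or more in size, the threshold of the study's methods. A gene with 2 probes is represented by the brighter one. Where 1 array did not read a probe well above its background, the change is given as a bound against the higher of its own signal and the lowest signal well above background there. Both arrays lay on 1 slide and were read in 1 scan, and the share of transcript spots well above background was 63.1% for fasting and 72.3% for feeding. The only error that can be measured is that between replicate spots, from 289 probes with many spots each. Genes were split by mean signal into 3 equal classes, and the log2 SD of a difference, as the replicate spots give it, was 0.10 in the brightest class, 0.14 in the middle class and 0.29 in the dimmest. All 7 hepatocyte markers checked, among them Alb and Cyp2e1, were well above background on both arrays, with changes from -0.97 to 0.03. In pooled tissue, fewer cells of a type and less RNA per cell cannot be told apart.

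Of the 45 carriers, 41 were well above background on at least 1 array, 38 of them on both. Slc25a2, Slc25a41, Slc25a43 and Slc25a54 reached that level on neither, and no change is given for them. Past 2-fold in either direction were 13 of the 41, where 7.91% of all 16346 genes measured were. Upon feeding, 11 of the 41 carriers were at least 2-fold lower (26.8%), where 4.62% of all genes were. At least 2-fold higher were 2 of the 41, Slc25a37 and Slc25a45, or 4.88%, where 3.29% of all genes were. Of the remaining 28, 25 were well above background on both arrays and short of 2-fold, and 3 have only a bound or no fold. At a threshold of 1.5-fold, 12 carriers were lower and 2 higher, where 10.6% and 10.5% of all genes were. The median change of the carriers was -0.02 and that of all genes 0.0, while the lower quartile was -1.09 for the carriers and -0.25 for all genes and the upper quartile 0.26 and 0.27. Thus 22 carriers were below 0, 18 above it and 1 had no change that could be given. Carriers close to 0 can change side with the scaling. With each array scaled by its median, 10 carriers were lower and 2 higher. Over all genes that scaling turned 537 higher and 756 lower genes into 717 and 649, a split nearer to even. By signal, 22 carriers fell in the brightest class, 11 in the middle and 8 in the dimmest. Of these, 8, 1 and 2 were at least 2-fold lower, where 3.71%, 4.06% and 6.11% of all genes of the class were.

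**Figure D1:**
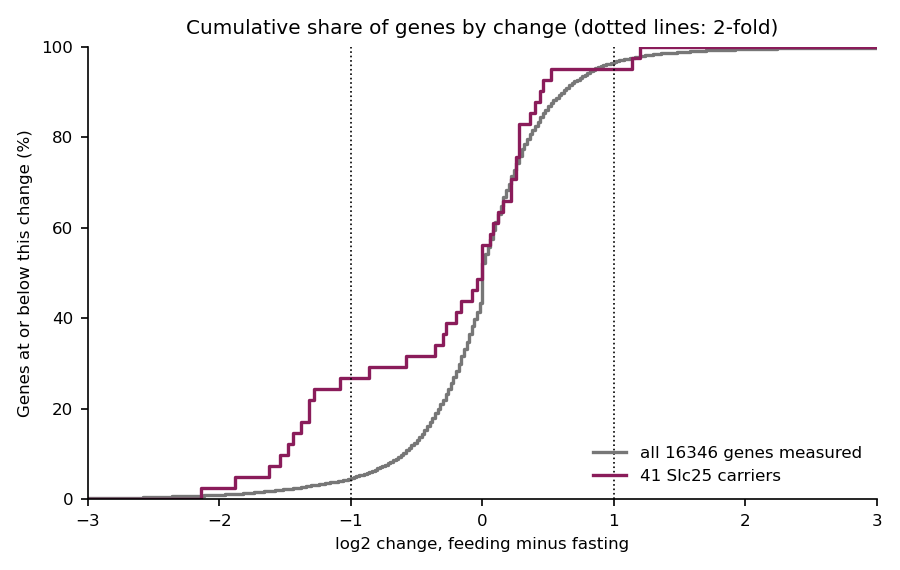
Cumulative share of genes (percent) at or below each log2 change of feeding minus fasting, for the 41 Slc25 carriers and for all 16346 genes measured; dotted lines mark 2-fold. The curves lie close together above a change of 0, and below -1 the carriers reach 26.8% where all genes reach 4.62%.

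The adenine nucleotide carriers held the largest decrease of the family beside members that differed little. Slc25a25, a calcium-regulated carrier that exchanges ATP-Mg for phosphate and so sets the size of the matrix nucleotide pool, had a normalized signal of 7436 upon fasting and 1673 upon feeding. The change was -2.15, or 4.44-fold lower, and 0.734% of all genes had a lower value. Its second probe, for the same transcript NM_146118, read 4540 and 1043, a change of -2.12. Both probes were thus high on the fasting array, by nearly the same amount.

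The other ATP-Mg/phosphate carriers and the ADP/ATP carriers that were well above background on both arrays were nowhere near 2-fold. The relatives Slc25a23 and Slc25a24 changed by 0.06 and -0.16. Without scaling, Slc25a23 changed by -0.10, so its direction is not settled. Slc25a5 encodes ANT2, the main ADP/ATP carrier of liver, and read 27908 upon fasting and 33411 upon feeding, a change of 0.26. Slc25a4 encodes ANT1, the form of heart and muscle, and is the one carrier well above background that was spotted many times. Before normalization its 9 fasting spots ran from 4999 to 5492 with a median of 5297, and its 10 feeding spots from 5461 to 6232 with a median of 5962. The ranges of the spots only just overlapped, and the change after normalization was 0.20. Slc25a31, the ADP/ATP carrier of testis, was not well above background upon fasting (15.4) and read 18.5 upon feeding, which is at least 1.20-fold higher. Of the 6 adenine nucleotide carriers measured, 1 was past 2-fold, where 7.91% of all genes were, and the median was 0.13. The phosphate carrier Slc25a3, which supplies ATP synthase, read 26406 and 31715, a change of 0.26, and 0.16 on its second probe. The carriers that serve ATP synthesis directly, Slc25a3 and Slc25a5, differed by more than the spot SD of 0.10 and were far short of 2-fold.

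Past 2-fold were 2 of the 8 amino acid carriers measured, both lower upon feeding, where 4.62% of all genes were lower. The group's median was -0.01. Slc25a15 exchanges ornithine for citrulline and so links the matrix and cytosolic steps of the urea cycle. Its signal was 2897 upon fasting and 1054 upon feeding, a change of -1.46 or 2.75-fold. Slc25a22, which carries glutamate into the matrix with a proton, read 24617 upon fasting and 9777 upon feeding, a change of -1.33 or 2.52-fold. The fasting array was the higher one for both, and 2.31% and 2.86% of all genes had lower values.

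Slc25a13 encodes citrin, the liver's aspartate/glutamate carrier, which exports aspartate for the urea cycle and the malate-aspartate shuttle. It read 12565 and 8390, a change of -0.58, just short of 1.5-fold. Slc25a12, the aspartate/glutamate carrier of muscle and brain, changed the other way by 0.28, from 2752 to 3339. Slc25a38, which brings glycine in for heme synthesis, changed by 0.26. Slc25a29, a carrier of basic amino acids, and Slc25a44, a carrier of branched-chain amino acids, differed by -0.02 and -0.01, less than the spot SDs of 0.29 and 0.14. Slc25a18, the second glutamate carrier, was well above background upon feeding only, with a signal of 9.96 there, under the lowest signal well above background on the fasting array, so no fold is given.

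**Figure D2:**
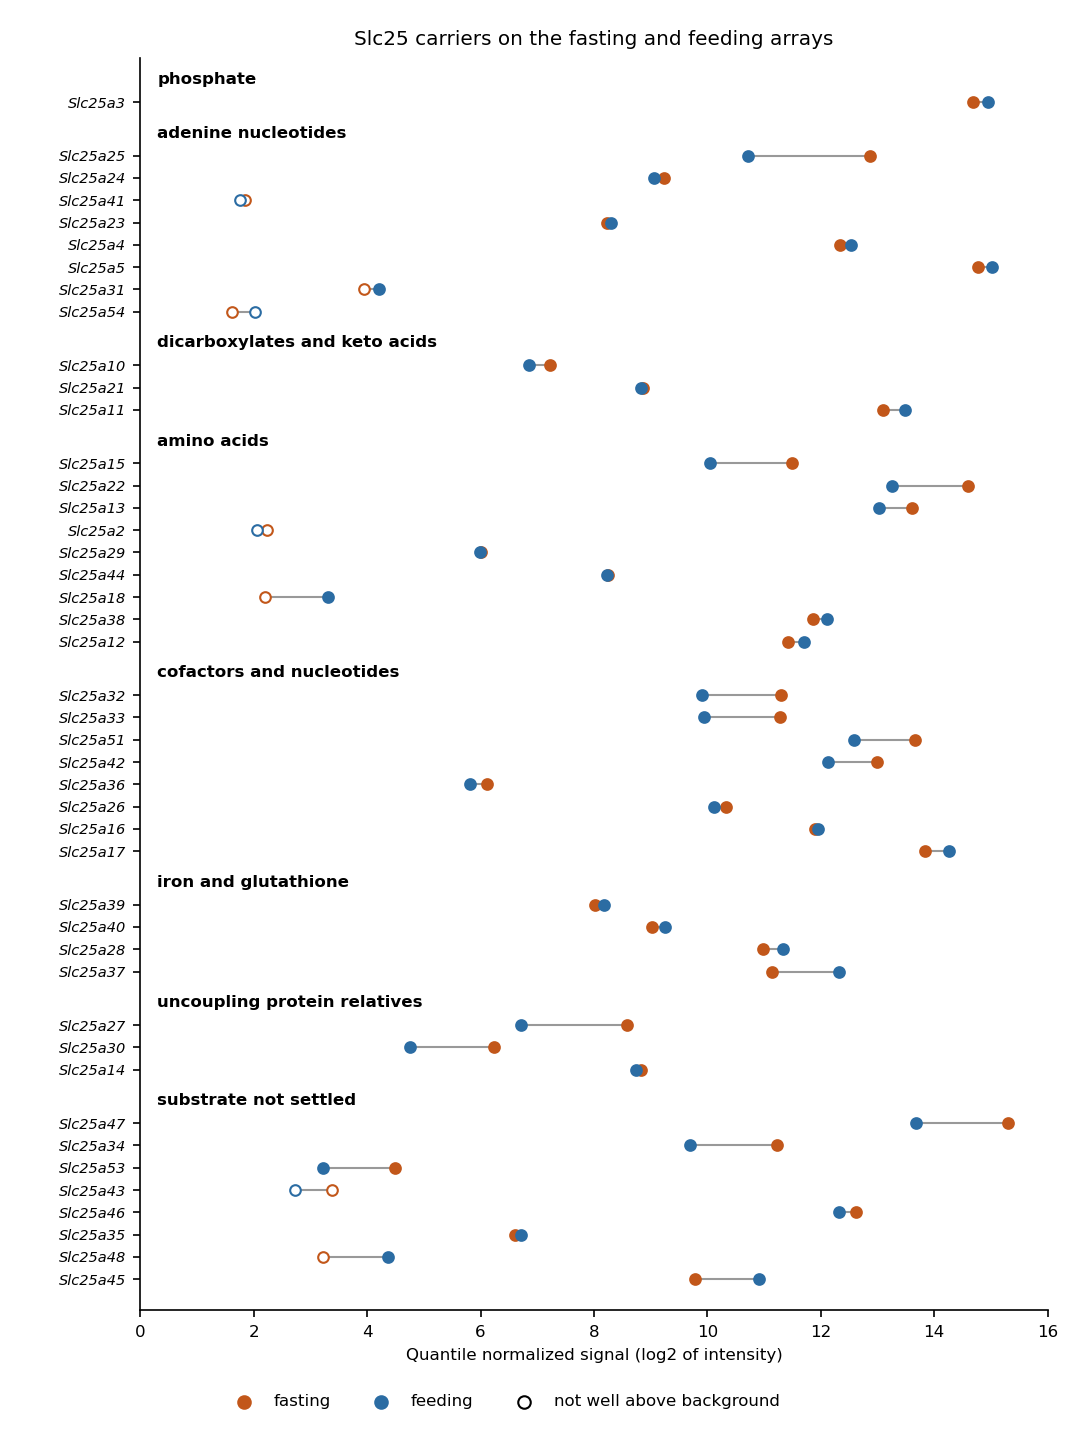
Quantile normalized signal (log2 of intensity) of the representative probe of each carrier shown on the fasting array (orange) and the feeding array (blue), grouped by substrate; hollow points were not well above background. Lines join the 2 arrays of a carrier. The longest lines among carriers measured on both arrays are those of Slc25a25 (-2.15), Slc25a27 (-1.88) and Slc25a47 (-1.62), all higher upon fasting.

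The carriers of cofactors and nucleotides were split. Past 2-fold were 3 of the 9 measured, all lower upon feeding, where 4.62% of all genes were lower. The median was -0.31. Slc25a32, which carries folate and FAD, read 2509 upon fasting and 957 upon feeding, a change of -1.39 or 2.62-fold. Slc25a33, the pyrimidine nucleotide carrier PNC1, read 2488 and 983, a change of -1.34 or 2.53-fold. Its second probe gave -1.38. Slc25a51, the carrier that brings NAD into mitochondria, read 13027 and 6123, a change of -1.09 or 2.13-fold, which made it the called carrier nearest to the threshold. The second probe of Slc25a51, for the same transcript, read 4620 and 1102, a change of -2.07 or 4.19-fold. Both probes were lower upon feeding, but they differ in the size of the change by more than the spot SD of 0.10. With each array scaled by its median, the brighter probe of Slc25a51 changed by -0.88 and was short of 2-fold.

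Slc25a42, which carries coenzyme A into the matrix, read 8174 and 4459, a change of -0.87 or 1.83-fold, the largest short of the threshold. Slc25a36, the second pyrimidine nucleotide carrier PNC2, changed by -0.31 on a dim probe, and Slc25a26, which carries S-adenosylmethionine, by -0.21 and -0.35 on its probes. On the other side, Slc25a17, the peroxisomal carrier of coenzyme A, FAD and NAD, read 14603 and 19708, a change of 0.43. Slc25a16, a carrier linked to coenzyme A, changed by 0.04.

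None of the 3 carriers of dicarboxylates and keto acids was past 2-fold. Of all genes 7.91% were, and 3 carriers are too few to set apart from that share. Slc25a11, the oxoglutarate/malate carrier of the malate-aspartate shuttle, read 8754 upon fasting and 11510 upon feeding, a change of 0.39. Slc25a10, which exchanges malate or succinate for phosphate, read 150 and 115, in the middle class of signal, a change of -0.38. Under another background correction, normexp, it changed by -0.19. That correction adds an offset of 50 to every signal, which by itself shrinks changes at low signals. Slc25a21, the oxodicarboxylate carrier, changed by -0.04.

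Past 2-fold was 1 of the 4 carriers linked to iron and glutathione, higher upon feeding, where 3.29% of all genes were higher. The group's median was 0.28. Slc25a37 encodes mitoferrin 1, the iron importer best known from erythroid cells. Its brighter probe read 2258 upon fasting and 5132 upon feeding, a change of 1.18 or 2.27-fold, and 2.12% of all genes had a higher value. The feeding array was the higher one. The second probe, near the background with signals of 26.1 and 31.4, changed by 0.27, less than the spot SD of 0.29, and the mean of the probes changed by 0.73. Slc25a28, mitoferrin 2, the iron importer of most tissues, changed by 0.34, from 2031 to 2572. The glutathione importer Slc25a39 changed by 0.15 and its relative Slc25a40 by 0.22. Without scaling, Slc25a39 changed by -0.012, so its direction is not settled.

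Markers of blood cells were read beside Slc25a37. Of 5 red blood cell markers on the array, 4 were well above background on both arrays, with changes from -0.23 to 0.01, and their summed signal was 37011 upon fasting and 36085 upon feeding. Hba-a1 and Alas2 changed by -0.05 and -0.23. Of 5 leukocyte markers, 1 was past 2-fold, Itgam, 2.83-fold higher on its brightest probe. The mean of the probes of Itgam changed by 0.31, short of 2-fold. The macrophage marker Adgre1 changed by -0.89, and the summed signal of the list went from 14508 to 8782. Without Adgre1, the other 4 markers summed to 1521 upon fasting and 1761 upon feeding, so the lower sum is that of Adgre1. The part of leukocytes in the value of Slc25a37 was not tested. Of the markers of pancreas, fat, testis and skeletal muscle, 4 of 6, 2 of 5, 1 of 3 and 1 of 3 were measured. The one past 2-fold was the pancreatic Cela2a, lower upon feeding on a dim probe (48.7 and 7.51).

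Past 2-fold were 2 of the 3 relatives of the uncoupling proteins, both lower upon feeding, where 4.62% of all genes were lower. Slc25a27, or UCP4, described mainly in brain, read 385 upon fasting and 104 upon feeding, a change of -1.88 or 3.69-fold. Under the normexp correction it changed by -1.07, still past 2-fold. Slc25a30, or KMCP1, described mainly in kidney, read 75.6 and 26.9, a change of -1.49. Its local background was 22 and 19 on the arrays, and under the normexp correction it changed by only -0.40. Slc25a14, or UCP5, changed by -0.09. The offset of 50 in the normexp correction by itself shrinks the change of a probe as dim as that of Slc25a30. That correction thus cannot show whether the call of Slc25a30 depends on the background method.

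Among the carriers whose substrate is not settled, 3 of the 7 measured were at least 2-fold lower and 1 higher. Of all genes, 4.62% were lower and 3.29% higher. Slc25a47, a carrier found mainly in liver, read 40148 upon fasting and 13048 upon feeding, a change of -1.62 or 3.08-fold. Slc25a34 read 2409 and 827, a change of -1.54 or 2.91-fold. Both were bright and high on the fasting array. Slc25a53 was near the background, with signals of 22.6 and 9.28 and a change of -1.28, while its second probe read 13.4 and 14.8, was well above background upon feeding only, and was at least 1.03-fold higher there. Under the normexp correction Slc25a53 changed by -0.11, but the offset of 50 exceeds both its signals and by itself shrinks the change. The call of Slc25a53 rests on the probe chosen.

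Slc25a45 was the one member of this group past 2-fold in the other direction, with 881 upon fasting and 1918 upon feeding, a change of 1.12 or 2.18-fold. It changed by 0.98 under the normexp correction, which is just short of 2-fold. Slc25a48, a carrier linked to choline, was well above background upon feeding only, at 20.6, and was at least 1.43-fold higher. Slc25a46, an outer membrane protein that shapes mitochondria, changed by -0.30 and -0.29 on its probes, and the orphan carrier Slc25a35 by 0.11. Without scaling, Slc25a35 changed by -0.11, so its direction is not settled.

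**Figure D3:**
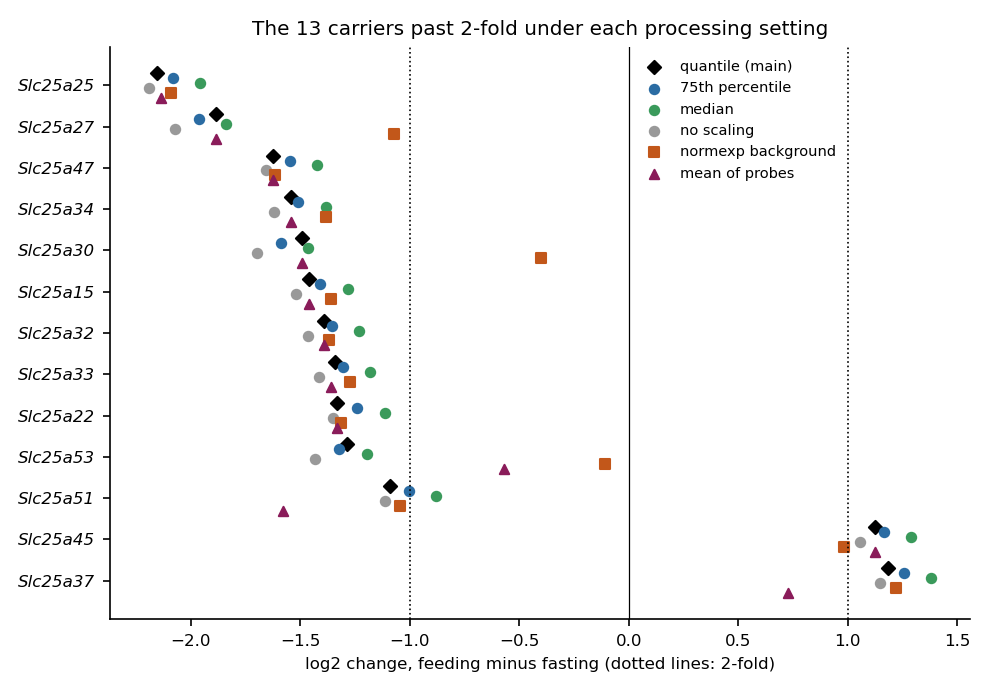
Log2 change of feeding minus fasting of the 13 carriers past 2-fold, under quantile normalization and 5 other settings; dotted lines mark 2-fold. Slc25a30 (-0.40) and Slc25a53 (-0.11) come close to 0 under the normexp background correction, whose offset of 50 by itself shrinks the changes of dim probes. Slc25a25 stays between -2.19 and -1.95.

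The letters upstream of the carriers past 2-fold are shown because 8 of the 11 lower carriers have a promoter window in the RefSeq table (GRCm38.p6), as do 34 of all 45 carriers. In the 250 bases before each listed start, both strands were searched for TGACGTCA (the cAMP response element), CACGTG (an E-box), AAGGTCA (the half-site of the estrogen-related receptors), GTAAACA (a forkhead site), the site of the nuclear respiratory factor NRF1 and the direct repeat bound by PPAR. The first pair read the same on both strands, and AAGGTCA can overlap the direct repeat. A carrier was counted where any of its windows held a match, while the shares are of single windows, so the numbers are not alike. A carrier with several listed starts had more windows to match. TGACGTCA was found in 2 of the 34 carriers, Slc25a25 and Slc25a36, and in 1.55% of all 32851 windows. CACGTG was found in 6 carriers, of which Slc25a15 and Slc25a33 were among the 8 lower ones, and in 6.02% of all windows. AAGGTCA was found in 1 carrier, Slc25a34, and in 4.08% of windows. The NRF1 site was found in Slc25a3 and Slc25a31 and in 3.74% of windows. GTAAACA (3.17% of windows) and the direct repeat (0.0335%) were found in no carrier.

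Slc25a15, a lower carrier with an E-box, is not printed. Printed are 3 other lower carriers that hold one of these matches, and Slc25a36, which holds a pair of them and was short of 2-fold. All lie on the minus strand and are read 5′ to 3′ toward the start, with the matches in capitals. The window of Slc25a25 is chr2:32424067-32424316, before 1 of its 3 listed starts, picked for holding the most matches, and inside the span of the gene. That of Slc25a33 is chr4:149774268-149774517, that of Slc25a34 is chr4:141623892-141624084, where the 57 bases next to the start were left out because another transcript covers them, and that of Slc25a36 is chr9:97111042-97111291.
Slc25a25: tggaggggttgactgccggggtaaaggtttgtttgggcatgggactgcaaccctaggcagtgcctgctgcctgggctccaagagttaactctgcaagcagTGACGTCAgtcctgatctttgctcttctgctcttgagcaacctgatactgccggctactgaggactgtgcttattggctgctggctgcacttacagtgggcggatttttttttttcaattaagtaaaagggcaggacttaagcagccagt
Slc25a33: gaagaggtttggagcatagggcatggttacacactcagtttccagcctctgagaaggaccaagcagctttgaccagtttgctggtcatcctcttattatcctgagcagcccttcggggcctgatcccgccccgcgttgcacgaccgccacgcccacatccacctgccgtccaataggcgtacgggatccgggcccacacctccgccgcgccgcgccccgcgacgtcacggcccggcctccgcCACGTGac
Slc25a34: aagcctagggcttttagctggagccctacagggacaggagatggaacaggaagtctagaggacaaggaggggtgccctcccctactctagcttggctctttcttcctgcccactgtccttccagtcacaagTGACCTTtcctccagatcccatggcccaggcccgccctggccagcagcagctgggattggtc
Slc25a36: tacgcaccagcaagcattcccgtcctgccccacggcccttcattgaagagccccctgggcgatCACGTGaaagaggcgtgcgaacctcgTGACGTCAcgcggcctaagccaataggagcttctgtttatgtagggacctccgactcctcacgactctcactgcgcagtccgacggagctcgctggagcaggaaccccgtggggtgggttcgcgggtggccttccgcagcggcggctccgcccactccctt
In Slc25a34 the capitals are the match read on the other strand. In Slc25a36 the first capitals are the E-box and the second are the cAMP response element. Slc25a25 and Slc25a36 share the full TGACGTCA, with changes of -2.15 and -0.31, the latter on a dim probe. A match is a description of the letters, and binding was not measured.

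Genes that work beside the carriers were read from 3 lists. The machinery that brings carriers to the inner membrane, with the outer membrane channels, held no gene past 2-fold among its 15. Of all genes 7.91% were, and a list of 15 is too short to set apart from that share. In the list 13 genes were above 0, where 47.7% of all genes were, and the median was 0.36. Over the scalings tried, the median ran from 0.32 to 0.56. Timm29, a subunit of the TIM22 complex, had the largest change, 0.83, followed by Tomm40, the pore of the outer membrane, at 0.63. Vdac1, the main channel for metabolites through the outer membrane, changed by -0.08.

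The median of 14 enzymes of the shuttles and the urea cycle was 0.02. Past 2-fold were 2 of them, both higher upon feeding, where 3.29% of all genes were. Those 2 form the glycerol phosphate shuttle: Gpd1, its cytosolic enzyme, went from 22026 to 44246, a change of 1.01, and Gpd2, its mitochondrial enzyme, from 841 to 1931, a change of 1.20. Gpd1 lies at the threshold and changed by 0.97 without scaling, short of 2-fold. Got1, Got2, Mdh1 and Mdh2 of the malate-aspartate shuttle changed by -0.18, 0.12, 0.13 and 0.12, beside 0.39 for the carrier Slc25a11 and -0.58 for Slc25a13. Of the urea cycle enzymes, Cps1, the entry enzyme, changed by -0.33 and Otc, Ass1, Asl and Arg1 by -0.11, -0.07, -0.11 and -0.14, beside -1.46 for their carrier Slc25a15. Nags, which makes the activator of Cps1, changed by 0.92. Under median scaling it changed by 1.09 and was past 2-fold. Glud1 and Gls2, which use and make glutamate in the matrix, changed by 0.29 and -0.18, beside -1.33 for the glutamate carrier Slc25a22. The carriers Slc25a15 and Slc25a22 were lower by more than 2-fold, which none of these enzymes was.

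Of 10 mitochondrial carriers with other names, 9 were measured and 2 were at least 2-fold lower, where 4.62% of all genes were. The 2 carriers were the uncoupling proteins Ucp2, from 2006 to 935 (-1.10), and Ucp3, from 1393 to 599 (-1.22). With each array scaled by its median, Ucp2 changed by -0.94 and was short of 2-fold, while Ucp3 changed by -1.08. Ucp1, the uncoupling protein of brown fat, was well above background on neither array. The pyruvate carrier subunits Mpc1 and Mpc2 changed by 0.19 and 0.08. The brightest probe of Sfxn2 changed by -0.23, but the mean of its probes changed by -1.41. Under the mean of probes, 3 carriers of the list were past 2-fold. The median of the list was -0.12, and 0.09 with each array scaled by its median, so its sign is not settled.

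**Figure D4:**
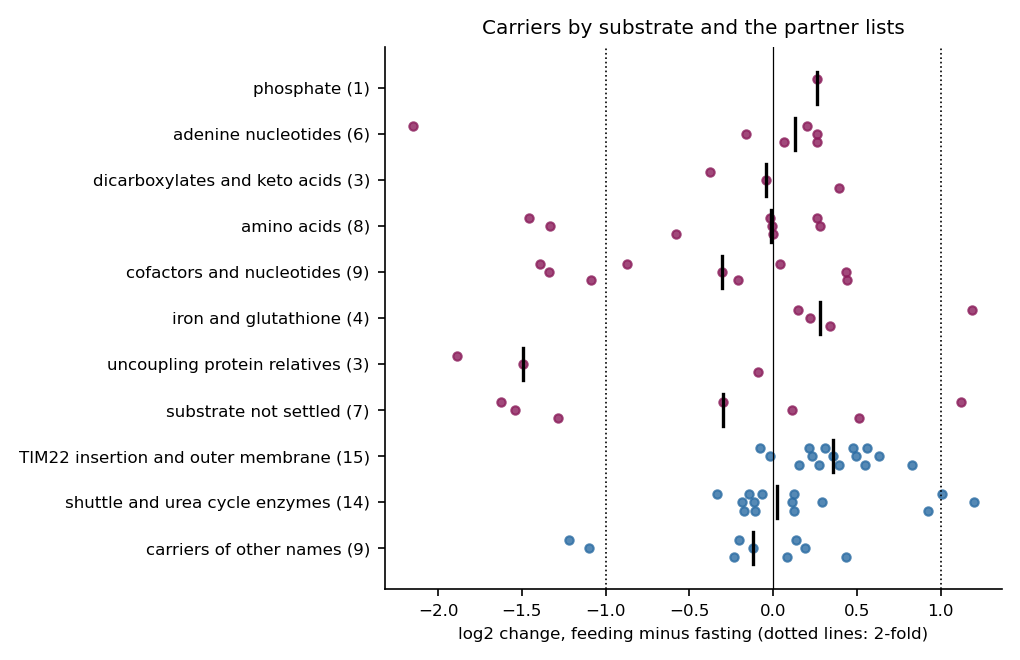
Log2 change of feeding minus fasting of each gene measured, for the carriers by substrate (purple) and for the 3 partner lists (blue), with the number of genes in brackets and the median as a bar; dotted lines mark 2-fold. Carriers below -1 occur in 5 of the 8 substrate groups. None of the genes of the TIM22 and outer membrane list is past 2-fold, where 7.91% of all genes are.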

How the data were processed

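Total RNA of pooled livers was labelled with Cy3, hybridised to the Agilent Whole Mouse Genome array and extracted with Feature Extraction 11.0.1.1. The deposited values are intensities per spot, background-subtracted within the array by the software and not normalized between arrays by the authors at this stage. A deposited table for the whole series matched the mean local background of the spots (88794 of 88794 intensities within a relative 1e-05), and no result rests on it. Of 44397 spots per array, 1377 controls and 123 (fasting) or 98 (feeding) outlier spots were left out, no spot was saturated, and the spots of a probe were averaged on the log2 scale and quantile normalized (Python 3.11.15). Probes were named by RefSeq transcript in the table of GRCm38.p6 (27218 of 39402 matched), so a probe with no match is not among the members. The array design names mm9, and coordinates are given only for RefSeq promoter windows. A probe counted as well above background where a share of at least 0.5 of its spots were. Called meant at least 2-fold, with 1 array per group and no test. Quantile normalization assumes a like distribution of signals on both arrays, and background subtraction moves dim probes most. The number of arrays limits the precision.

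Carriers were grouped by known substrate. Values are given for each carrier at least 1.5-fold different, for the extremes of each group with an exception that is not reported here, for probes that disagree and for a set of carriers of known liver metabolism. Of the partner lists, genes past 2-fold and up to 3 more are named, and the shuttle and urea cycle enzymes were named in full after their values were seen. The members, groups, partner lists and motifs were chosen with earlier results of these data known. Alternatives tried were scaling by the median, the 75th percentile or not at all, normexp with an offset of 50 on the median signal (limma 3.58.1, R 4.3.3), every probe or the mean of the probes of a gene, stricter or no filters, no bound, and thresholds of 1.5-fold and 3-fold. The procedure was tested on simulated data for genes well above background on both arrays, with no change placed near the threshold. The simulation held no spread between mice. It thus says nothing on calls near the threshold or on probes near the background.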

Additional observations from a re-analysis of the deposited data

How the results depend on the processing

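With 1 array per group, no statement here covers the spread between mice, and depth is limited by signal over background. No paired analysis was possible because each group holds 1 array. At 2-fold, 9 to 11 carriers were lower under all alternatives that count genes. The share of all genes lower was 1.91% under normexp, where 9 carriers were, and 5.99% without scaling, where 11 were. Counting every probe, 14 of 49 probes, of 11 carriers, were lower, where 4.83% of all probes measured were. The 1.5-fold threshold gave 12 carriers lower, where 10.6% of all genes were. The 3-fold threshold left 3 lower and 0 higher, where 1.9% and 0.967% of all genes were. The number higher was 1 under the normexp correction and 4 without the lower bound, where Slc25a18 and Slc25a48 are added. The median of all carriers was -0.20 without scaling. All 13 carriers past 2-fold kept their direction in the 7 settings run for them, the main one included. Leaving out the bound could not alter them, as all were well above background on both arrays. The mean of probes could alter only those with 2 probes. The 13 were picked for a change of at least 1 in size. The other scalings moved each by far less, so they could hardly reverse a direction. Slc25a30, Slc25a53, Slc25a51, Slc25a37 and Slc25a45 were short of 2-fold in at least 1 setting. Both directions together, at 3-fold 0 amino acid, 0 cofactor, 0 iron and glutathione, 1 uncoupling protein relative and 1 carrier of unsettled substrate were called, with 0 shuttle and urea cycle enzymes and 0 carriers of other names. At 1.5-fold, 2 genes of the TIM22 list were called. Counting every probe gave 2 adenine nucleotide and 5 cofactor probes called, and the mean of probes gave 0 for iron and glutathione. Under normexp, 2 carriers of unsettled substrate and 1 uncoupling protein relative were called, with medians of -0.11 and -0.40. Without scaling, the medians were -0.21 for amino acids, -0.52 for cofactors, -0.20 for dicarboxylates and -1.70 for uncoupling protein relatives, and 1 shuttle and urea cycle enzyme, Gpd2, was called. With scaling by the median, they were 0.43 for iron and glutathione, 0.46 for phosphate, -0.10 for unsettled substrates, 0.56 for the TIM22 list, 0.18 for shuttle and urea cycle enzymes and 0.092 for carriers of other names, of which 1, Ucp3, was called. The median of the last list was 0.023 over every probe, so its sign is not settled. That of cofactors was -0.61 over every probe. For unsettled substrates it was -0.79 with the stricter filter and -0.47 with none. The cause of these shifts was not tested.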

Other observations

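In the RefSeq table, 4 pairs of carriers are neighbours with 0 coding genes between them. On chromosome 12, Slc25a47 changed by -1.62 and its neighbour Slc25a29 by -0.02. On the X chromosome, Slc25a5 changed by 0.26 beside Slc25a43, which was well above background on neither array. The same holds for Slc25a24 (-0.16) beside Slc25a54 on chromosome 3, and for Slc25a23 (0.06) beside Slc25a41 on chromosome 17.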
